A study of Mus musculus with 5 samples.

Results

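Genes of the heat shock chaperones and their partners were followed in the lungs of C3H mice with allergic airway inflammation. They comprised the HSP70, HSP90, HSP110 and small heat shock protein families, the DnaJ and BAG co-chaperones, the CCT chaperonin, the heat shock factors and a few HSP90 co-chaperones. Members were chosen by gene symbol, leaving out the endoplasmic reticulum chaperones Hspa5 and Hsp90b1, and by having a value on at least 4 of 5 arrays. By symbol 83 genes matched, and 67 of them (of 9727 genes measured in all) had enough values. The rule used whether a value was present and not its size, but the genes were chosen with earlier results of these data known, the large ratios of Hspa8 and Hspa1a among them. Some members matched by name work outside the cytosol, in mitochondria or the endoplasmic reticulum, and 4 (Hspbp1, Hspbap1, Hsf2bp and the pseudogene Hsp25-ps1) are named after a chaperone or heat shock factor without being one; Hspb11 is also known as a component of cilia.

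The study used 5 mice of the inbred strain C3H given ovalbumin, an egg-white protein, first as sensitisation and later as challenge (ova mice). Lung RNA of each was amplified and set against a pool of amplified lung RNA from control C3H mice on its own 2-colour array, so that 1 control sample served all 5 arrays. The sources used here do not give the age and sex of the mice, the treatment of the controls or the number of control mice. Values are log2 ratios, with base 2 taken and not stated, after each array was centred on its median; a ratio of 1 is then a 2-fold difference.

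The labels do not settle which sample is the numerator. On a list of genes that allergic airways are known to induce, 7 were measured, of which 6 passed the threshold below 0 and 0 above it. Retnla was at -4.79 and the goblet cell gene Clca1 at -4.33. A gene is therefore described by its side: the negative side is the side of Retnla and Clca1, and the positive side the opposite one. Arrays held values for 11778 to 13320 probes, and their ratios had an SD across probes of 0.20 in mouse 1 and of 0.32 to 0.38 in the others. Across genes, which are not independent replicates, pairs of arrays gave Pearson's r of 0.67 to 0.84, and they share the control pool. In whole lung, fewer cells of a type and less RNA per cell cannot be told apart.

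Chaperones hold unfolded proteins and let them fold. HSP70 proteins bind and release clients in a cycle driven by ATP: DnaJ proteins deliver clients and start ATP hydrolysis, and HSP110 and BAG proteins drive nucleotide exchange. HSP90 finishes the folding of kinases and steroid receptors, helped by co-chaperones such as Stip1, which links it to HSP70. The ring-shaped CCT complex folds actin and tubulin. Under heat or other protein stress, heat shock factor 1 binds the heat shock element, repeats of GAA in alternating orientation, and raises the inducible chaperones together.

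In these lungs the chaperone genes did not lie on 1 side. Of the 67 members, 23 passed the threshold (limma's moderated test against 0, adjusted p under 0.05), 9 on the positive and 14 on the negative side, and 44 did not pass. That is 34.3% of the members, against 27.3% of all genes (12.3% on the positive and 15% on the negative side), and the share of members is near that background. The members' median ratio was -0.02, against 0.00 over all genes. The largest ratios were those of the HSP70 genes Hspa8 (1.92) and Hspa1a (1.07), on the positive side. The largest on the negative side were Hsp90aa1 (-0.55), Hspa4l (-0.54) and the CCT subunit gene Cct7 (-0.53). The count of members past the threshold was 15 without mouse 3 and 15 without mouse 5, with 7 and 9 on the negative side.

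**Figure D1:**
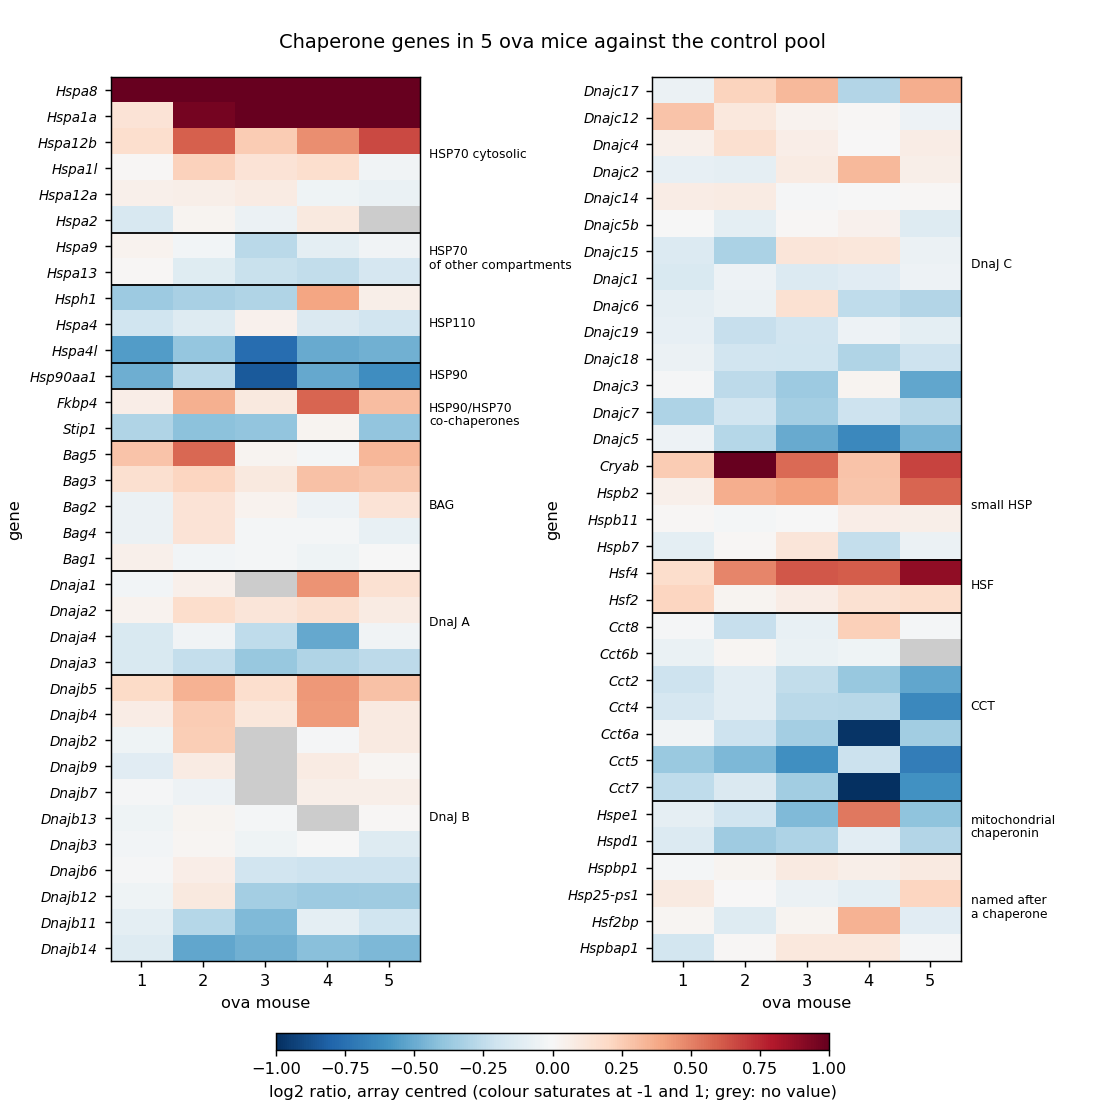
Log2 ratio (colour, saturating at -1 and 1; grey, no value) of each of the 67 chaperone genes (rows, grouped by role) in each ova mouse (columns). Hspa8 is dark red in all 5 mice and Hspa1a in mice 2 to 5, while Hsp90aa1, Hspa4l and most CCT subunits are blue.

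**Figure D2:**
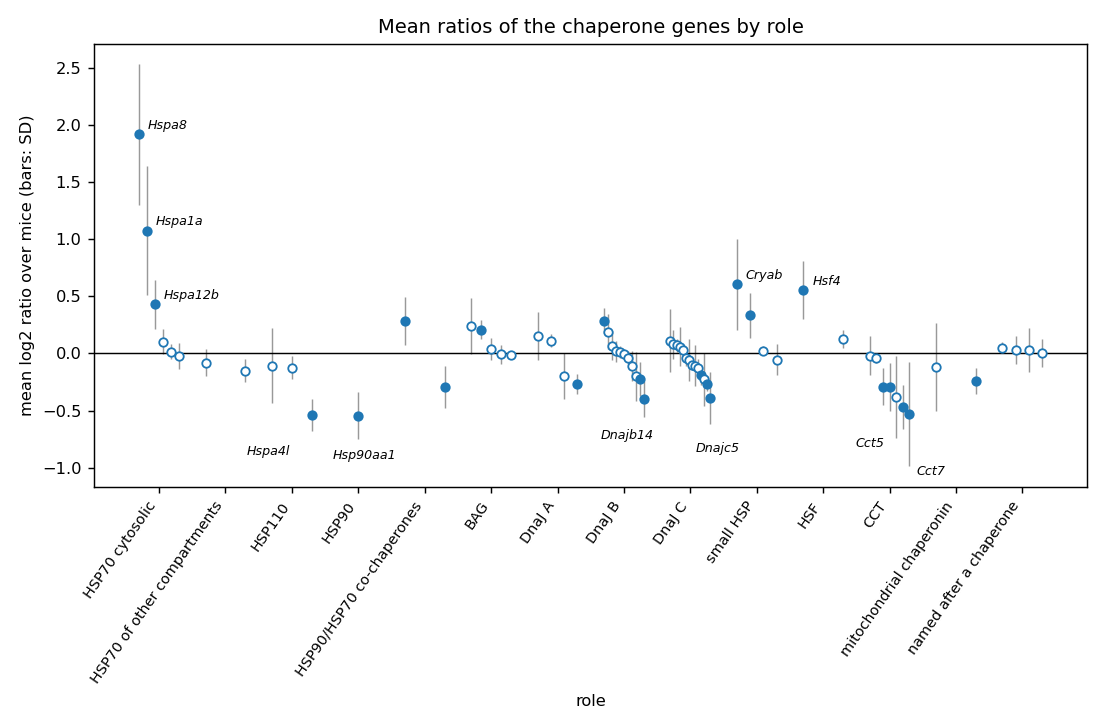
Mean log2 ratio over the mice (points; bars, SD) of the 67 genes by role, with filled points for the 23 genes past an adjusted p of 0.05. Hspa8 and Hspa1a lie above 1, and all other members lie between -0.55 and 0.60.

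Hspa8 encodes the constitutive heat shock cognate protein, abundant in unstressed cells. Its probe gave 1.37, 1.18, 2.50, 2.04 and 2.48 in mice 1 to 5. The gene was thus far above 0 in every mouse, lowest in mice 1 and 2. The mean was 1.92 ± 0.62 (SD, n = 5; limma adjusted p = 0.000979), the largest positive mean of all 9727 genes, from 1 probe. Hspa8 was known to lead that side when the members were chosen, so its value is a description.

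Hspa1a, the main inducible HSP70, gave 0.14, 0.96, 1.49, 1.28 and 1.49 in mice 1 to 5, averaged over its probes. It was close to 0 in mouse 1 and near or above 1 in the other mice. The mean was 1.07 ± 0.57 (n = 5; adjusted p = 0.00536). Hspa8 exceeded Hspa1a by 1.23 in mouse 1, by 0.76 to 1.01 in mice 3 to 5 and by 0.22 in mouse 2, where they were closest. Mouse 1 had the smallest spread of ratios over all probes, yet its Hspa8 ratio was above that of mouse 2.

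The array carries 17 probes for Hspa1a, all listed under 1 transcript accession and with consecutive IDs. On all arrays 3 of them were blank, 1 had values in 3 mice and 13 had values in all 5. Of these 13, 12 passed the threshold, with means of 0.72 to 1.49 and a median over the 13 of 1.16. The remaining probe stayed near 0, at 0.02, 0.24, 0.14, 0.00 and -0.12 in mice 1 to 5 (adjusted p = 0.517). Probes of the same listed transcript spread widely within a mouse. In mouse 5 the probes ran from -0.12 to 2.25 (SD over probes 0.74), and in mouse 1 from 0.01 to 0.27 (SD 0.09). Without the probe near 0 the gene's mean was 1.15 (adjusted p = 0.00543). Where in the transcript each probe lies was not analysed here.

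**Figure D3:**
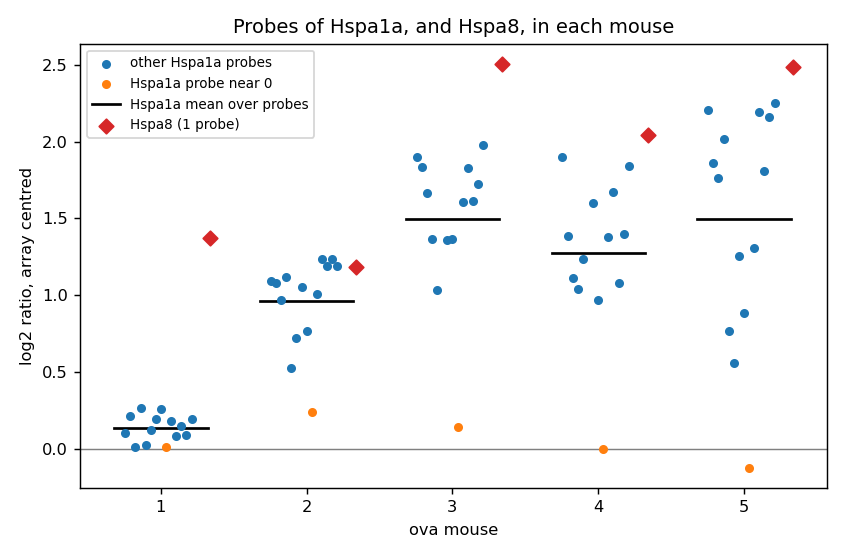
Log2 ratio of the 14 Hspa1a probes with a value (circles) in each ova mouse, their mean (line) and the Hspa8 probe (diamond). In mouse 1 the Hspa1a probes lie between 0.01 and 0.27 while Hspa8 is at 1.37, and 1 Hspa1a probe stays near 0 in all mice.

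Hspa1b is a near copy of Hspa1a and also stress-inducible. Its own probe was blank on all arrays, and its transcripts may also bind the Hspa1a probes, which was not tested. In RefSeq the 250 bases before their starts (GRCm38.p6) share 247 letters (98.8%). The stretch of Hspa1a is shown because this gene is the inducible member with the largest ratio, with the letters GAANNTTC in capitals. It lies at chr17:34972157-34972406 on the minus strand and is printed 5′ to 3′ up to the base before the start.
Hspa1a: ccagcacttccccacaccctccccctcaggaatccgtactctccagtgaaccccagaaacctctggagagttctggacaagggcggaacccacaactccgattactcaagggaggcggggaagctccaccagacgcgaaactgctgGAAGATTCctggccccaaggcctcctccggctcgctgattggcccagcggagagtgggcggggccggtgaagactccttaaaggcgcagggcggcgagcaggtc

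Such letters were then searched in all members with a promoter in the RefSeq table, 52 of 67; Hspa8, Hsp90aa1, Hsf4, Cryab and Hspb2 are among the 15 others. The letters were GAANNTTC and TTCNNGAA, each of which reads the same on both strands, and, on either strand, the 13 letters in which they overlap (GAA, TTC and GAA, with 2 letters between neighbours), within 250 bases before a start. GAANNTTC or TTCNNGAA stood before 11 of the 52 genes, in 13 of 70 promoters (18.6%, against 12.8% of all 32851 promoters). The overlapping form stood in 4 of the 70 (5.71%, against 0.466%), before Dnajb6, Hspd1 and Hspe1. These shares count promoters and not separate sites. Only exact letters were searched, so heat shock elements that depart from them are neither counted nor put in capitals, for Hspa1a as for the others. Hspd1 and Hspe1 share the same site, read on opposite strands. Dnajb6 and Hsph1 each have promoters of different starts that hold the same site. To compare them, 30 bases around the letters (capitals) are shown for Hspa1a, for the positive member Fkbp4, for the genes with the overlapping form, and for the negative member Cct5.
Hspa1a, chr17:34972242-34972271, minus strand: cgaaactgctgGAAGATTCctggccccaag
Fkbp4, chr6:128438789-128438818, minus strand: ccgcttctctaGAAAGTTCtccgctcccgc
Dnajb6, chr5:29735844-29735873, plus strand: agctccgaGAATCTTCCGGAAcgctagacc
Hspe1, chr1:55088053-55088082, plus strand: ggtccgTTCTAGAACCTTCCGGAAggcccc
Hspd1, chr1:55088053-55088082, minus strand: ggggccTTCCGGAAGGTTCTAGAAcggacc
Cct5, chr15:31601862-31601891, minus strand: acagcggccgaTTCCAGAAgctactctgcg

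Genes with these letters lay on both sides: 4 of the 11 above 0 (Hspa1a 1.07, Fkbp4 0.28, Dnajb4 0.19, Dnaja1 0.16) and 7 below it (Hsph1 -0.11, Dnajb6 -0.11, Hspe1 -0.12, Dnaja4 -0.20, Hspd1 -0.24, Cct2 -0.29, Cct5 -0.47). Of these 11, 2 passed the threshold above 0 (against 12.3% of all genes) and 3 below it (against 15%). The 3 genes with the overlapping form were all below 0, and only Hspd1 passed. A match of letters is a description of the sequence, and the binding of a factor was not measured.

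Among the other HSP70 relatives, Hspa12b, an HSP70-like protein of endothelial cells, gave 0.17, 0.60, 0.26, 0.46 and 0.66 in mice 1 to 5. All mice were above 0, and mouse 1 was lowest. The mean was 0.43 ± 0.21 (adjusted p = 0.00679). Of 16 endothelial marker genes, listed after the values of Hspa12b were known, 13 passed above 0 (against 12.3% of all genes) and 0 below it, with medians from 0.24 in mouse 1 to 0.73 in mouse 2; their part in the ratio of Hspa12b was not tested. Its relative Hspa12a gave 0.02 ± 0.07. The germ cell HSP70 genes Hspa1l (0.10 ± 0.11) and Hspa2 (-0.02 ± 0.11, n = 4) did not pass, nor did the mitochondrial Hspa9 (-0.08 ± 0.11) and the microsomal Hspa13 (-0.15 ± 0.10).

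Hspa1l lies next to Hspa1a. It gave 0.01, 0.23, 0.14, 0.17 and -0.03 in mice 1 to 5, against 0.14 to 1.49 for Hspa1a. The neighbours thus differed most in mouse 5. Hspa1l is a relative of Hspa1a, and whether it shares signal with Hspa1a was not tested.

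The nucleotide exchange factors of the HSP110 family did not follow Hspa8 and Hspa1a. Hspa4l gave -0.56, -0.39, -0.76, -0.50 and -0.48 in mice 1 to 5. All mice were below 0 and close together. The mean was -0.54 ± 0.14 (adjusted p = 0.0012). Hspa4 gave -0.12 ± 0.10 and did not pass. Hsph1, the stress-inducible HSP110, split between mice: it was -0.36, -0.33 and -0.30 in mice 1 to 3 but 0.39 in mouse 4 and 0.06 in mouse 5, and its mean of -0.11 ± 0.33 did not pass (adjusted p = 0.515).

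Of the HSP90 genes of the cytosol, Hsp90aa1, the inducible alpha form, was measured. It gave -0.49, -0.27, -0.84, -0.51 and -0.62 in mice 1 to 5, below 0 in every mouse and lowest in mouse 3. The mean was -0.55 ± 0.21 (adjusted p = 0.00258). Thus the inducible HSP90 gene lay on the opposite side from the inducible HSP70 gene, in every mouse. The probe of Hsp90aa1 lies 6 IDs from that of the trefoil gene Tff2 (-3.32, n = 4). Over 7466 pairs of probes 6 IDs apart and naming different genes, mean ratios correlated with r = 0.144, against r between -0.01 and 0.02 at the distances from 1 to 5. The part of Tff2 in the ratio of Hsp90aa1 was not tested, since leaving out probes near a stronger one removes its only probe.

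HSP90 co-chaperones fell on both sides. Stip1, the adaptor between HSP70 and HSP90, gave -0.30, -0.41, -0.40, 0.03 and -0.40 in mice 1 to 5. Mouse 4 stood apart from the other 4, which lay close together. The mean was -0.29 ± 0.19 (adjusted p = 0.0194), and the call was lost without mouse 2, 3 or 5 (0.0652, 0.0735 and 0.0717; 0.00558 to 0.0735 over 15 alternatives). Fkbp4, the immunophilin FKBP52 of steroid receptor complexes, gave 0.07, 0.36, 0.10, 0.58 and 0.31, all above 0. Its mean was 0.28 ± 0.21 (adjusted p = 0.0317), and its call was lost without mouse 2, 4 or 5 (0.0915, 0.0693 and 0.0951; 0.0197 to 0.0951 over 15 alternatives).

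BAG proteins bind the ATPase domain of HSP70. Bag3, the stress-inducible member that links HSP70 to autophagy, gave 0.16, 0.22, 0.10, 0.30 and 0.27 in mice 1 to 5. All mice were above 0 at small ratios. The mean was 0.21 ± 0.08 (adjusted p = 0.0155), and the call was lost without mouse 5 (0.0593; 0.00991 to 0.0593 over 15 alternatives). Bag5 ranged from -0.02 to 0.58 around a mean of 0.24 ± 0.24, which did not pass (adjusted p = 0.0775). Bag1 (-0.01 ± 0.04), Bag2 (0.04 ± 0.10) and Bag4 (-0.01 ± 0.08) lay within 0.05 of 0.

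DnaJ proteins, the partners that start ATP hydrolysis by HSP70, were the largest family, with 29 members. Of these, 1 passed on the positive side (3.45%, against the 12.3% of all genes) and 6 on the negative side (20.7%, against 15%). Their means ran from -0.40 to 0.29, with a median of -0.04. The positive gene, Dnajb5, gave 0.19, 0.35, 0.17, 0.43 and 0.29 in mice 1 to 5, above 0 in all, with a mean of 0.29 ± 0.11 (adjusted p = 0.00696).

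On the negative side, Dnajb14, a membrane protein of the endoplasmic reticulum, gave -0.13, -0.52, -0.48, -0.42 and -0.45 in mice 1 to 5. Mice 2 to 5 lay close together and mouse 1 nearer to 0. The mean was -0.40 ± 0.16 (adjusted p = 0.00408). Dnajc5, the cysteine string protein of secretory vesicles, gave -0.05, -0.28, -0.50, -0.64 and -0.46, with a mean of -0.39 ± 0.23 (adjusted p = 0.0116; 0.0506 without mouse 3, and 0.0027 to 0.0506 over 15 alternatives). Mouse 1 was again nearest to 0, and its array had the smallest spread of ratios over all probes (SD 0.20, against 0.32 to 0.38).

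Dnaja3, the mitochondrial DnaJ, had -0.27 ± 0.08 and Dnajc7, which binds both HSP70 and HSP90, -0.27 ± 0.06; both were below 0 in all mice. Dnajb11, a co-chaperone in the endoplasmic reticulum, had -0.22 ± 0.15. Its call was lost without mouse 2, 3 or 5 (adjusted p = 0.0884, 0.0853 and 0.0775; 0.021 to 0.0884 over 15 alternatives). Dnajc18 had -0.19 ± 0.09. Its call was lost without mouse 2, 3, 4 or 5 (0.0615, 0.0691, 0.0593 and 0.0708; 0.0153 to 0.0708 over 15 alternatives).

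The other 22 DnaJ genes, with means from -0.23 to 0.19, did not pass, among them Dnaja1 (0.16 ± 0.21, n = 4) and Dnaja2 (0.11 ± 0.06), the main DnaJ partners of Hspa8 in the cytosol. Dnaja4 had -0.20 ± 0.20 and the testis and cilia gene Dnajb13 -0.01 ± 0.03 (n = 4). Dnajb1, the classical heat-inducible DnaJ, had values in 2 mice only (0.12 and 0.33) and was below the minimum for members.

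For 3 members other than Hspa1a, at least 2 probes had values on at least 4 arrays, and their probes agreed to different degrees. The probes of Dnaja2 gave 0.12 and 0.11. Those of Dnaja3 gave -0.14 (adjusted p = 0.0519) and -0.39 (adjusted p = 0.00649), both below 0. Those of Dnajb4 lay on opposite sides. Of them, 1 gave 0.38 ± 0.10, above 0 in all 5 mice and past the threshold (adjusted p = 0.0024). The other gave -0.10 ± 0.10 (n = 4; adjusted p = 0.233). The gene's mean of 0.19 ± 0.15 did not pass (adjusted p = 0.0555) and stands for neither probe.

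Small heat shock proteins hold unfolding proteins without ATP, and several are known from muscle. Cryab, alpha B-crystallin, gave 0.26, 1.24, 0.56, 0.29 and 0.68 in mice 1 to 5. All mice were above 0 and mouse 2 was highest. The mean was 0.60 ± 0.40 (adjusted p = 0.0135; 0.0515 without mouse 5, and 0.00445 to 0.0515 over 15 alternatives). Hspb2, whose gene lies next to Cryab, gave 0.05, 0.36, 0.40, 0.28 and 0.59, also above 0 in all. Its mean was 0.33 ± 0.20 (adjusted p = 0.0139; 0.0558 without mouse 3, and 0.00421 to 0.0558 over 15 alternatives). Hspb7, of heart muscle, gave -0.05 ± 0.13 and Hspb11 0.02 ± 0.04, and neither passed.

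Of 19 heart muscle marker genes measured, 10 passed above 0 (against 12.3% of all genes) and 0 below it, with medians of 0.01, 0.25, 0.35, 0.46 and 0.38 in mice 1 to 5. The atrial myosin gene Myl7 was at 0.68 and the heart myosin gene Myh6 at -0.07. Of 8 smooth muscle markers, 1 passed above 0 and 2 below it. A high share above 0 was not particular to heart muscle. Of 9 fat markers, 6 passed above 0 and 0 below it. Of 13 alveolar and club cell markers, 8 passed above 0 and 1 below it, and of 10 ciliated cell markers 1 and 2. The part of muscle or any other of these cell types in the ratios of Cryab and Hspb2 was not tested.

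The heat shock factors measured were Hsf2 and Hsf4. Hsf1 was not among the genes matched by symbol, so it has no value here. Hsf4, known for its role in the lens, gave 0.18, 0.49, 0.62, 0.61 and 0.89 in mice 1 to 5. All mice were above 0, and mouse 1 was lowest. The mean was 0.56 ± 0.26 (adjusted p = 0.00444). Hsf2, a factor of development and of prolonged stress, had 0.13 ± 0.08, above 0 in all 5 mice, and did not pass (adjusted p = 0.0776).

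Subunits of the CCT chaperonin assemble into 1 ring complex in fixed proportion. Of 7 member subunits, 4 passed below 0 (against 15% of all genes) and 0 above it (against 12.3%), and 3 did not pass. Their median was -0.29, against 0.00 over all genes. Cct5 gave -0.37, -0.45, -0.61, -0.21 and -0.69 in mice 1 to 5, below 0 in all, with a mean of -0.47 ± 0.19 (adjusted p = 0.00373). Cct2 had -0.29 ± 0.16 (adjusted p = 0.0142) and was below 0 in all 5 mice. Cct4 had -0.29 ± 0.21 (adjusted p = 0.0268), and its call was lost without mouse 3 or 4 (0.0755 and 0.0631; 0.00817 to 0.0755 over 15 alternatives). Of its 2 probes, 1 had values only in mice 1 and 2 (-0.10 and 0.03). The other gave -0.33 ± 0.17 over 5 mice (adjusted p = 0.0109).

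Cct7 and Cct6a were lowest in mouse 4. Cct7 was -1.29 there and -0.26, -0.15, -0.35 and -0.61 in mice 1, 2, 3 and 5. Its mean was -0.53 ± 0.46 (adjusted p = 0.0357), and the call was lost without mouse 3 or 5 (0.0763 and 0.106; 0.0141 to 0.106 over 15 alternatives). Without mouse 4 the mean was -0.34. Cct6a was -0.98 in mouse 4, against -0.35 to -0.03 elsewhere, with a mean of -0.38 ± 0.36 (adjusted p = 0.0506). In the same mouse Cct5 was at its highest, -0.21, and Cct8 lay above 0, at 0.24. Ratios within an array thus differed between subunits of 1 complex. Cct8 (-0.02 ± 0.17) and the testis form Cct6b (-0.04 ± 0.04, n = 4) did not pass. Cct3 had values in 2 mice only, near 0 (0.06 in mouse 2 and -0.03 in mouse 5), and was below the minimum for members.

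The mitochondrial chaperonin genes Hspd1 (HSP60) and Hspe1 (HSP10) lie side by side, are read in opposite directions and share the letters shown above. Hspd1 gave -0.14, -0.36, -0.31, -0.10 and -0.29 in mice 1 to 5. It was below 0 in all, with a mean of -0.24 ± 0.11 (adjusted p = 0.0146). The call was lost without mouse 2, 3 or 5 (0.0507, 0.0571 and 0.0556; 0.00953 to 0.0571 over 15 alternatives). Hspe1 gave -0.09, -0.19, -0.44, 0.52 and -0.41, so it followed Hspd1 except in mouse 4, and its mean was -0.12 ± 0.39 (adjusted p = 0.534). Without mouse 4 it was -0.28 (adjusted p = 0.0368; 0.0368 to 0.877 over 15 alternatives).

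**Figure D4:**
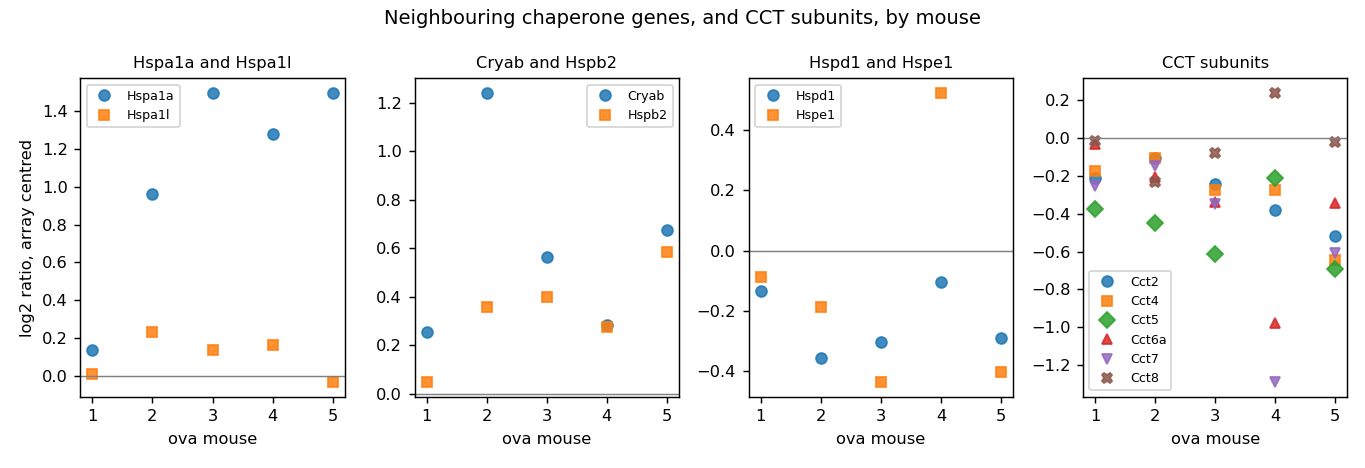
Log2 ratio by ova mouse of neighbouring chaperone genes and of 6 of the 7 CCT subunits among the members. Each panel has its own scale. Cryab and Hspb2 are above 0 in all mice, Hspe1 leaves Hspd1 in mouse 4 (0.52 against -0.10), and Cct7 and Cct6a are lowest in mouse 4.

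Over the 60 members with 5 values, mouse 4 was the farthest from the gene's median in 18; over all 8042 such genes it was the farthest in 25.8%. The members' median SD between mice was 0.13, as over all genes (0.13). Sorted by place in the cell (a list made after the values were known), 8 members of the endoplasmic reticulum gave 3 past the threshold below 0 and 0 above it. The 6 of mitochondria gave 2 and 0, and the other 53 gave 9 on each side; of all genes, 15% passed below 0 and 12.3% above it.

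Beyond the families named, 34 other genes of chaperone work and the heat shock response were measured from a list of 52. On each side 6 passed (17.6%, near the 12.3% above 0 and 15% below 0 of all genes), and the median was -0.01. On the negative side, Fkbp5, an HSP90 co-chaperone induced by glucocorticoids, gave -0.56, -1.93, -0.99, -0.62 and -1.67 in mice 1 to 5, with a mean of -1.15 ± 0.62 (adjusted p = 0.00566). It was far below 0 in mice 2 and 5. Other glucocorticoid-induced genes lay on the positive side, Tsc22d3 at 0.63 and Per1 at 0.34, both past the threshold. Sgk1 (0.18), Zbtb16 (0.14, n = 4) and the receptor gene Nr3c1 (0.13) were also above 0 but did not pass. Fkbp5 and Fkbp4, immunophilins that compete for HSP90 in receptor complexes, thus lay on opposite sides in every mouse. The probe of Fkbp5 lies 24 IDs from that of Arg1 (-3.48) and 18 from that of Fgf22 (-2.64); their part in its ratio was not tested, and r was 0.117 and 0.115 at these distances.

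Hmox1, the heme oxygenase gene of oxidative stress, had -0.64 ± 0.44 (adjusted p = 0.0154; without mouse 3 or 5, 0.0568 and 0.0596; 0.00636 to 0.0596 over 15 alternatives). Nap1l1, a histone chaperone, had -0.38, the HSP70 co-chaperone gene St13 -0.29 and the mitochondrial HSP90 gene Trap1 -0.27. The calls of St13 and Trap1 were lost without mouse 5 (0.0514 and 0.0504), and that of Trap1 also without mouse 3 (0.0506); their adjusted p-values ran from 0.00548 to 0.0514 and from 0.00448 to 0.0506 over 15 alternatives.

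On the positive side, Pfdn5, a subunit of prefoldin, which hands actin and tubulin to CCT, had 0.36 ± 0.16. Pdcl3, a co-factor of CCT, had 0.27 ± 0.12, and the tubulin folding cofactor gene Tbcc 0.21 ± 0.05. The list held 9 measured prefoldin, tubulin cofactor and Pdcl3 genes, grouped here after their values were seen. Of these, 4 passed above 0 (against 12.3% of all genes) and 1 below it (against 15%). Those above 0 were Pfdn5, Pdcl3, Tbcc and Pfdn1 (0.15), and Tbcb (-0.22) was below it. The other 4 did not pass (Tbca 0.22, Pfdn6 0.03, Tbcd 0.03 and Tbce -0.10). Sqstm1, the autophagy receptor p62, had 0.28 ± 0.19, and lost its call without mouse 2, 3 or 5 (adjusted p = 0.0781, 0.0655 and 0.0887; 0.016 to 0.0887 over 15 alternatives). Serpinh1, the collagen chaperone HSP47 and a heat shock gene, had 0.20 ± 0.14 and lost its call without mouse 1, 2, 4 or 5 (0.0916, 0.123, 0.0778 and 0.122; 0.0312 to 0.123 over 15 alternatives).

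Immediate early genes, which respond within minutes to handling and stress, were listed beside the inducible chaperones. Of 19 measured, 5 passed above 0 (against 12.3% of all genes) and 2 below it (against 15%), and the median was 0.16. Those past the threshold above 0 were Klf2 (1.01), Rhob (0.93), Klf4 (0.91), Dusp1 (0.72) and Zfp36 (0.29). Below it were Junb (-0.48) and Atf3 (-0.44; adjusted p = 0.0476, with 0.06 in mouse 1). The part of immediate early genes in the ratios of Hspa1a and Hspa8 was not tested.

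The 4 members named after a chaperone had means within 0.05 of 0, among them Hspbp1, which helps nucleotide exchange on HSP70 (0.05 ± 0.05), and none passed. Of the 83 genes matched by symbol, 16 were not members: 7 were blank on all arrays and 9 had values on 1 to 3. Just inside the minimum, the 7 genes with 4 values had means of -0.04 to 0.16. Just outside it, Dnajc8 had 0.08 over 3 mice and Hspb3 -0.21 over 3 mice. Genes on 1 side of 0 in every array that measured them made up 30 of the 67 members, against 40.1% of all genes.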

How the data were processed

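The deposited table holds the authors' processed values, 1 per probe and array, signed and taken as log2 ratios of an ova mouse and the control pool; the sources used here name no upstream step, dye or scanner. Of 17280 probes, 2247 had no value. By the platform annotation, 14722 probes name 1 gene, 1 names several and 2557 name none; a gene table (GRCm38.p6) changed 0 symbols. Arrays were centred on their medians, and probes naming only 1 gene were averaged per gene and array. Genes with values on at least 4 arrays were tested against 0 with limma 3.58.1 in R 4.3.3 (intercept, eBayes, two-sided; Benjamini-Hochberg over 9727 genes; threshold 0.05). The pool is 1 control sample, so the test leaves out the spread among control mice, and the number of arrays limits precision. On simulated data of 9727 genes, 96% of shifts of 1 and 46% of shifts of 0.3 were recovered.

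Members and lists were chosen with earlier results of these data known. Named are members past the threshold, on 1 side in every array and with a mean of at least 0.3 in size, all HSP70, HSP110, HSP90, HSF and BAG genes, the 2 largest per role, and 5 other chaperone genes per side; other genes named were chosen after their values were seen. Alternatives were centring, quantile normalization, array scale, probe median, blanks, neighbouring probes, robust eBayes, array weights and leaving out each mouse. A comparison of protein sequences was not made. Promoters are from RefSeq.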

Additional observations from a re-analysis of the deposited data

Results flagged for a closer look

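Among 49 genes examined, 4 had 1 mouse far from the other 4, by a gap of more than 0.71 of the gene's range (Dixon's 95% value for 5 samples); chance gives this in about 1 of 20 groups. Bag4 was 0.13 in mouse 2, Dnajb14 was -0.13 in mouse 1, Hspa4 was 0.043 in mouse 3 and Stip1 was 0.028 in mouse 4. A different mouse stood apart in each gene.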

How the results depend on the processing

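Of the 23 members past the threshold, 12 kept side and call under every alternative that gave them a value, among them Hspa8, Hspa1a, Hspa12b, Hsf4, Hsp90aa1, Hspa4l and Cct5, and 11 lost the call under some; 0 changed side. Leaving out probes near a stronger probe removes the only probe of Hsp90aa1 (near Tff2) and that of Fkbp5, so this alternative gave no value for them. All 24 lost calls came from leaving out 1 mouse, which leaves fewer arrays. With 1 mouse left out, the count past the threshold ran from 15 to 25 (negative side 7 to 16, positive side 6 to 9), that of all genes from 1599 to 2553, and the members' median from -0.039 to -0.0113. Under the other alternatives the count ran from 22 to 26. Members near 0 that changed side were Bag4 (-0.0428 to 0.0085 with 1 mouse left out, above 0 without mouse 1 or 5), Hsp25-ps1 (-0.0158 to 0.0628, below 0 without mouse 5) and Hspa2 (-0.0633 to 0.0247, above 0 without mouse 1). Dnaja4 passed under quantile normalization (adjusted p = 0.0497), and Hspa13 with probes measured on all 5 arrays (0.0431) and without mouse 1 (0.0364). Serpinh1 also lost its call with array weights (0.0621). Leaving out the Hspa1a probe near 0 was chosen after seeing the data and left the count at 23. Brightness of the spots was not used here, so faint probes were known only by blanks. No paired analysis was possible because the series has 1 group.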
